A study of Mus musculus with 6 samples.

Results

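The genes described here load peptides onto major histocompatibility complex (MHC) class I molecules: the heavy chains H2-K1, H2-D1 and H2-T23, the light chain B2m, the peptide transporter Tap1 and Tap2, the loading factor Tapbp, and the immunoproteasome subunits Psmb8, Psmb9 and Psmb10. Members were all probe sets whose gene symbol list in the platform annotation holds one of these 10 genes, which gave 20 of 12488 probe sets. Of the 20, 16 list 1 gene and 4 list several; 9 of the 10 genes have a probe set of their own, among 8251 such genes on the array, and H2-T23 has none.

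Whole lung RNA was measured on 6 Affymetrix arrays, 1 for each of ICR smoked, ICR control, DBA smoked, DBA control, C57 smoked and C57 control mice. ICR is an outbred stock, and DBA and C57 are inbred strains named no further by the labels. Smoked mice were exposed to the smoke of 3 cigarettes a day on 5 days a week for 4 weeks, and the lungs of control mice are labelled normal. The labels number each sample as mouse 1 and give no age, sex, substrain or pooling, so the spread between arrays may be technical in part.

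MHC class I molecules display peptides from inside nearly every nucleated cell to CD8 T cells and natural killer cells. The proteasome cuts cytosolic proteins into peptides, the Tap1 and Tap2 transporter pumps them into the endoplasmic reticulum, and tapasin (Tapbp) holds an empty heavy chain with beta-2 microglobulin (B2m) beside the transporter until a peptide binds. Interferon gamma raises most of these genes and replaces the constitutive catalytic proteasome subunits Psmb6, Psmb5 and Psmb7 by Psmb9, Psmb8 and Psmb10. In the mouse the classical heavy chains are highly polymorphic between strains, and H2-T23 encodes the non-classical chain Qa-1, a ligand of inhibitory receptors on natural killer cells.

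In the RefSeq annotation 8 of the 10 genes lie on chromosome 17, in the MHC region, while B2m lies on chromosome 2 and Psmb10 on chromosome 8. Psmb9, Tap1, Psmb8 and Tap2 are neighbours there. The promoter windows of the 3 heavy chains, of their light chain B2m and of Tap1 are printed so that the elements they share or lack can be seen. Each runs from 250 bases before to 50 after an annotated start site in RefSeq's GRCm38.p6, the C57BL/6J genome, and not in DBA or ICR. The windows are chr17:34000298-34000597 on the minus strand for H2-K1, chr17:35262844-35263143 on the plus strand for H2-D1, chr17:36032652-36032951 on the minus strand for H2-T23, chr2:122147437-122147736 on the plus strand for B2m and chr17:34187306-34187605 on the plus strand for Tap1. Capitals mark matches on either strand to the kappa B site of the class I enhancer A (GGGGATTCCCC), the class I interferon consensus (AGTTTCACTTCT), the interferon-stimulated response element core (GAAANNGAAA) and the CCAAT box (CCAAT).
H2-K1: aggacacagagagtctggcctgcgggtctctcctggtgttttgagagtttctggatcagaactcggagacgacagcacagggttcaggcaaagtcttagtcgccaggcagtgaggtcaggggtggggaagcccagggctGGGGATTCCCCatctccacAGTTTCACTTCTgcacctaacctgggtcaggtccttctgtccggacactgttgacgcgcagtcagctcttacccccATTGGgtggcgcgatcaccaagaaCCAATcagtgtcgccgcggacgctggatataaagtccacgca
H2-D1: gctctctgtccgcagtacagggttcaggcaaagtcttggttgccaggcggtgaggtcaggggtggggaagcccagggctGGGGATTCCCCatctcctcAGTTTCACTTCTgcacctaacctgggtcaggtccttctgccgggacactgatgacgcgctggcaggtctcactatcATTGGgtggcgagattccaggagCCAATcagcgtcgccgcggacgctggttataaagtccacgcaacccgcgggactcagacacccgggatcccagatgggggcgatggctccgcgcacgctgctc
H2-T23: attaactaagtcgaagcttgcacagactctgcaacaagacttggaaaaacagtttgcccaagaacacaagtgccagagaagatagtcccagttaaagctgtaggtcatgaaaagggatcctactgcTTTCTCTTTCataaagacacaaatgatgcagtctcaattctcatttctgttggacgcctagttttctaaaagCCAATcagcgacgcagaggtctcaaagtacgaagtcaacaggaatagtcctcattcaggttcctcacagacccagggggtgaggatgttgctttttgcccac
B2m: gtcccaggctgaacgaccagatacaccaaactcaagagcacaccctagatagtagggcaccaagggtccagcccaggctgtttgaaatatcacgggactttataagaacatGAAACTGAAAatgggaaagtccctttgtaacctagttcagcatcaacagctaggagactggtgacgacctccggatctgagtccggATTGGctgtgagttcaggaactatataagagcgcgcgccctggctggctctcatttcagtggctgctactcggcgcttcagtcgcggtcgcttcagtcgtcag
Tap1: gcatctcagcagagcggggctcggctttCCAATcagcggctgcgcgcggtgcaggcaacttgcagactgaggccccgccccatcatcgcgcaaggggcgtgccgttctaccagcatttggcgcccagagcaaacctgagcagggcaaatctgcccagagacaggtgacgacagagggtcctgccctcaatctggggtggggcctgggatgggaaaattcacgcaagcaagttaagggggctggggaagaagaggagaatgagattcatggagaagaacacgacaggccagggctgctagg

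The kappa B site and the class I interferon consensus stood side by side in the windows of H2-K1 and H2-D1, at bases -111 to -101 and -92 to -81 of H2-K1 and at -171 to -161 and -152 to -141 of H2-D1, counted from the start site as 0. The start site used for H2-K1 lies inside the gene, which reaches 34000619 on the minus strand, beyond the window's 5' end at 34000597. The H2-D1 start site is the first base of its gene, so positions in H2-K1 and H2-D1 are not counted from like points. Both sites were searched with the letters they have in H2-K1, so that H2-K1 matches by construction. Of 32851 promoter windows of the same length, 0.0304% held the kappa B site and 0.0335% the interferon consensus. H2-T23 and B2m held the interferon-stimulated response element core instead, at -124 to -115 and -139 to -130, as did 3.44% of all windows. CCAAT was found in 7 of the 9 member windows available and in 37.4% of all windows. The gamma-activated site TTCNNNGAA, also searched but not capitalised, was in the Psmb8 window and in 8.3% of all windows. The windows of Tap1 and Psmb9 overlap by 275 bases on opposite strands, with start sites 226 bases apart. These matches describe letters of the reference, and no binding was measured here.

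Median deposited intensity ran from 25.9 on the ICR smoked array to 84.8 on the DBA smoked array, so values were quantile normalized before arrays were compared. The ratio of 3' to 5' beta-actin signal was 4.75 and 1.63 in ICR, 1.66 and 1.46 in DBA, and 2.51 and 2.75 in C57, smoked before control. For Gapdh this ratio was 2.39 and 1.11 in ICR, 0.95 and 0.97 in DBA, and 1.38 and 1.69 in C57. Both ratios were thus higher on the C57 arrays than on the DBA and ICR control arrays. The part of this in the strain differences below was not tested. Summed normalized signal of alveolar type II cells was 13650 to 17460 and of club cells 15170 to 18260 over the 6 arrays. Neutrophil markers (7 of 8 measured) summed to 14860 on the DBA control array and 848 to 3129 on the others, liver markers (6 of 7 measured) to 2955 on the DBA smoked array and 57.5 to 420 on the others, and skeletal muscle markers (9 of 9 measured) to 3480 and 4986 on the C57 smoked and control arrays and 197 to 726 on the others. T cell markers (8 of 10 measured) summed to 183 to 332, natural killer and cytotoxic cell markers (7 of 9) to 249 to 515, and macrophage markers (7 of 8) to 3005 to 6225. Ciliated cell markers (5 of 6 measured) ordered the strains, at 452 and 386 in ICR, 726 and 763 in DBA, and 963 and 1081 in C57, smoked before control. Of 3 tested, 2 were called lower in ICR than in C57. Of 6 skeletal muscle markers tested, 5 were called lower than in C57 both in ICR and in DBA. For the smoke difference of DBA against that of the other strains, 4 of 6 neutrophil markers were called lower and 3 of 3 liver markers higher. Every other marker call stood alone in its list and comparison. Over all probe sets 2.29% were called for ICR against C57, 1.73% for DBA against C57 and 0.711% for the DBA response. The other lists were B cells (355 to 843), dendritic cells (401 to 552), alveolar type I cells (10880 to 14640) and endothelial cells (8640 to 11790). No marker on these lists was below the added constant on all 6 arrays. In whole lung, fewer cells of a type and less RNA per cell cannot be told apart, and the part of these marker differences in the results below was not tested.

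After the filter on low signal 17 of the 20 member probe sets were tested. The 3 left out were a Tap1 probe set (162278_r_at) and 2 that list H2-K1 or H2-D1 among several Q region genes (97174_r_at and 95773_at), at percentiles 31.6, 35.5 and 8.03 of mean signal against the limit of 40. The nearest member inside the limit was H2-K1 97700_at, at percentile 63.3. Of the 20, 7 carry the Affymetrix suffix _f_at, for probes shared with related sequences, 6 of them on heavy chain genes. Their signal may therefore sum several class I genes.

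Heavy chain values were mostly higher in ICR and DBA than in C57 lungs, and 2 of the 8 tested heavy chain probe sets passed against C57. Over all 7453 probe sets tested, 0.926% were called higher in ICR than in C57 and 0.872% higher in DBA than in C57. Among the heavy chain probe sets the largest difference was at H2-D1 97541_f_at. Its deposited intensity was 755 and 1168 on the ICR smoked and control arrays, 2401 and 1908 on the DBA smoked and control arrays, and 270 and 282 on the C57 smoked and control arrays. The C57 arrays thus lay below the 4 others with no overlap. On the normalized log2 scale H2-D1 97541_f_at was 10.57 and 10.34 in ICR, 10.84 and 10.74 in DBA, and 7.92 and 7.93 in C57, smoked before control. It was 7.26-fold higher in DBA than in C57 (log2 2.86, SE 0.20, adjusted p = 0.000436) and 5.75-fold higher in ICR than in C57 (log2 2.52, SE 0.20, adjusted p = 0.000999). Between ICR and DBA the difference was -0.34 (95% interval -0.79 to 0.11, adjusted p = 0.45).

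The other H2-D1 probe sets gave smaller differences in the same direction, and none was called. Probe set 97540_f_at was at 12.04 and 11.74 in ICR, 12.30 and 12.44 in DBA, and 11.54 and 11.61 in C57 (normalized log2, smoked before control). Its log2 difference was 0.79 for DBA against C57 (SE 0.18, adjusted p = 0.0667) and 0.32 for ICR against C57 (SE 0.18, adjusted p = 0.385). With the filter raised to the 60th percentile DBA passed against C57 there (adjusted p = 0.0454). Over the 14 alternative settings, some with an array left out, that difference was 0.55 to 0.92. A fit with an array left out has 1 residual degree of freedom, so its p-value leans on the spread of other probe sets. For 101886_f_at the 2 differences were 0.63 and 0.36 (SE 0.17 each). Within each array the log2 ratio of 97541_f_at over 97540_f_at was -1.48 and -1.39 in ICR, -1.46 and -1.69 in DBA, and -3.61 and -3.67 in C57. The probe sets listed for H2-D1 therefore disagree by about log2 2 on the size of the strain difference (2.21 for ICR minus C57 and 2.07 for DBA minus C57). Whether strain differences in the sequence under the probes had a part in this was not tested.

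H2-K1 showed the same kind of disagreement. Probe set 97700_at had deposited intensities of 157 and 73.4 in ICR, 190 and 325 in DBA, and 28.6 and 36.4 in C57, smoked before control, with the C57 arrays lowest. Its log2 difference was 2.36 for DBA against C57 (SE 0.58, adjusted p = 0.0984) and 2.14 for ICR against C57 (SE 0.58, adjusted p = 0.103), so neither passed. Over the 14 alternative settings the difference ran from 1.39 to 3.33 for DBA against C57. For ICR against C57 it ran from 0.82, without the ICR smoked array, to 3.45. Passes at 97700_at came mostly from fits with an array left out. There the p-value leans on the spread of other probe sets, so no weight is given to them here. Probe set 97125_f_at was at 9.64 and 9.88 in ICR, 9.80 and 9.91 in DBA, and 9.13 and 9.05 in C57 on the normalized log2 scale, with C57 again below the rest. Its differences were 0.67 for ICR against C57 and 0.76 for DBA against C57 (SE 0.20 each, adjusted p = 0.134 and 0.131). At 93120_f_at the ICR and C57 arrays overlapped, reading 12.08 and 11.92 in ICR, against 11.76 and 12.04 in C57, and both DBA arrays read 12.37 because they held the same rank. DBA was above C57 there by 0.47 (SE 0.17, adjusted p = 0.312).

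**Figure D1:**
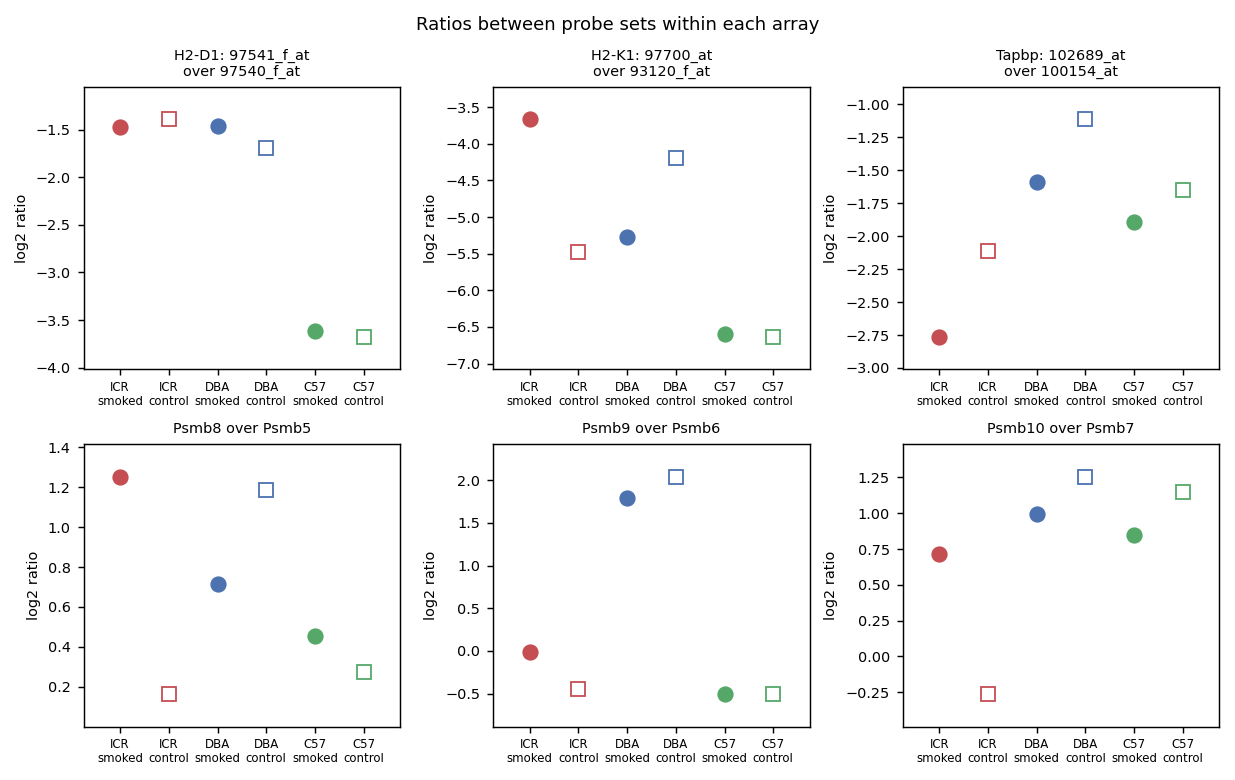
Log2 ratio between normalized probe sets within each of the 6 arrays, smoked arrays as filled circles and control arrays as open squares. The H2-D1 ratio lies at -1.69 or above on the 4 ICR and DBA arrays and at -3.61 and -3.67 on the C57 arrays, and the ratio of Psmb9 over Psmb6 is 1.79 and 2.04 in DBA against -0.50 to -0.02 on the other arrays.

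The probe set that lists H2-T23 (98472_at, together with H2-T-ps) was highest in ICR, and was the 1 of the 17 tested with ICR above DBA. It was at 8.63 and 8.69 in ICR, 7.87 and 7.65 in DBA, and 7.25 and 7.46 in C57 (normalized log2, smoked before control). No strain overlapped another. It rose 2.48-fold in ICR against C57 (log2 1.31, SE 0.24, adjusted p = 0.0287), while the differences of 0.90 for ICR against DBA (SE 0.24, adjusted p = 0.125) and 0.41 for DBA against C57 (SE 0.24, adjusted p = 0.6) did not pass. The call was lost, at log2 1.16 to 1.46, when an ICR or C57 array was left out: adjusted p = 0.0649 without ICR smoked, 0.159 without ICR control, 0.13 without C57 smoked and 0.0675 without C57 control. It was also lost without scaling (log2 0.53, adjusted p = 0.539) and without the filter (adjusted p = 0.0689). A probe set that lists 10 class I genes, H2-K1, H2-D1 and H2-T23 among them (102161_f_at), was at 10.94 and 10.82 in ICR, 11.29 and 11.45 in DBA, and 10.58 and 10.41 in C57. Its largest difference was 0.87 for DBA against C57 (SE 0.18, adjusted p = 0.0545, and 0.0431 with the filter at the 60th percentile).

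B2m, the light chain shared by class I molecules, had a single probe set and was lower in C57 than on any other array. Normalized log2 values were 11.51 and 11.90 in ICR, 11.76 and 11.75 in DBA, and 10.99 and 10.73 in C57, smoked before control. The difference was 0.85 for ICR against C57 (SE 0.20, adjusted p = 0.0693) and 0.89 for DBA against C57 (SE 0.20, adjusted p = 0.0651), near but not past the threshold. Without the C57 smoked array the log2 values were 1.07 for ICR against C57 and 1.12 for DBA against C57. With the filter at the 60th percentile B2m passed in both (adjusted p = 0.0499 for ICR against C57 and 0.047 for DBA against C57). Without scaling between arrays the difference for ICR against C57 was 0.08 (adjusted p = 0.901). Between ICR and DBA it was -0.05, with a 95% interval of -0.50 to 0.40.

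**Figure D2:**
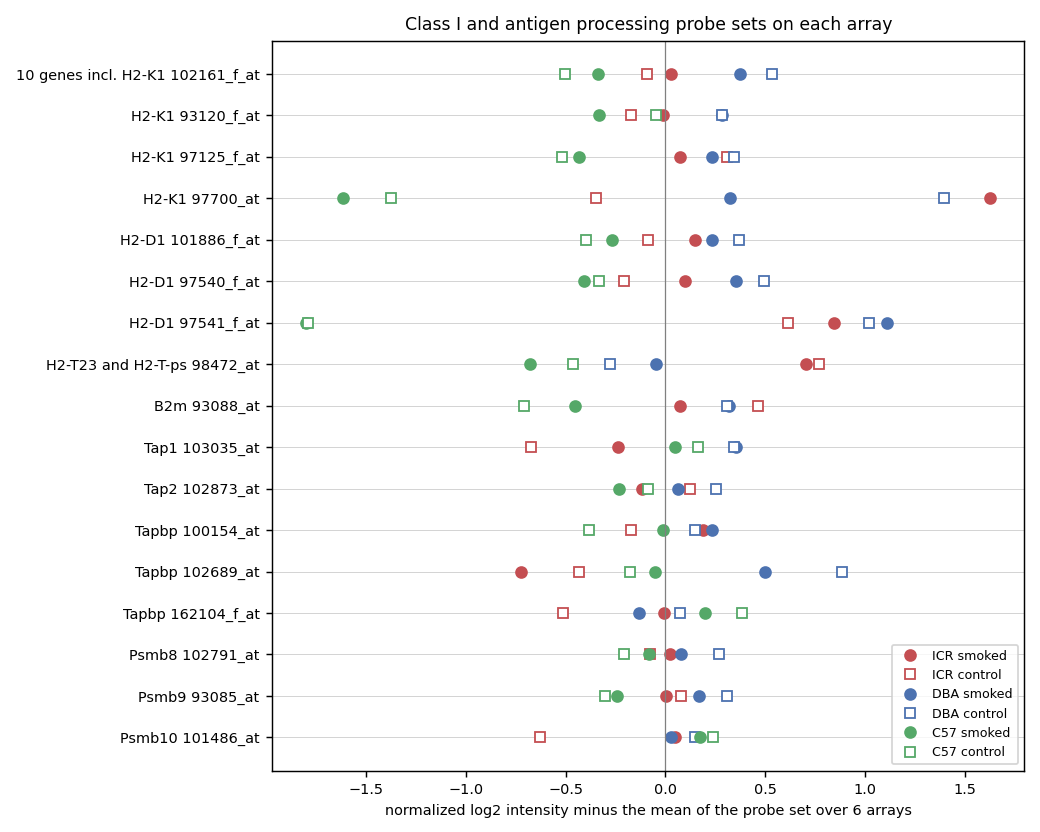
Normalized log2 intensity of the 17 tested member probe sets on each array, minus the mean of the probe set over the 6 arrays, smoked arrays as filled circles and control arrays as open squares. The C57 arrays lie lowest for H2-D1 97541_f_at, H2-K1 97700_at and B2m, and the ICR arrays highest for the probe set of H2-T23 and H2-T-ps.

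Among the peptide transporter and tapasin probe sets, 1 passed the test, with ICR below DBA. Tap1, the transporter subunit encoded next to Psmb9, was at 7.81 and 7.37 in ICR, 8.40 and 8.39 in DBA, and 8.09 and 8.21 in C57 (103035_at, normalized log2, smoked before control). The ICR arrays were lowest with no overlap, but neither -0.81 for ICR against DBA (SE 0.24, adjusted p = 0.165) nor -0.56 for ICR against C57 (SE 0.24, adjusted p = 0.27) passed. Tap2, the partner subunit, was at 7.43 and 7.68 in ICR, 7.62 and 7.81 in DBA, and 7.32 and 7.47 in C57. Its strain differences lay between -0.15 and 0.32, and the ICR arrays overlapped those of both other strains.

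Tapbp had 3 probe sets that ordered the strains differently. At 102689_at it was at 7.36 and 7.64 in ICR, 8.58 and 8.96 in DBA, and 8.03 and 7.90 in C57, so that the strains did not overlap. Tapbp was 2.41-fold lower in ICR than in DBA (log2 -1.27, SE 0.24, adjusted p = 0.0477). Left out in turn, the DBA control array (adjusted p = 0.175), the ICR control array (adjusted p = 0.145) and the ICR smoked array (adjusted p = 0.11) each ended that call. At 100154_at the same difference was -0.18 (95% interval -0.63 to 0.26) and at 162104_f_at -0.23 (95% interval -0.85 to 0.39). DBA against C57 gave 0.81, 0.39 and -0.32 at 102689_at, 100154_at and 162104_f_at, so the sign depended on the probe set, and none passed.

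None of the 3 immunoproteasome subunits passed in a strain comparison. Psmb8 was at 9.20 and 9.10 in ICR, 9.26 and 9.45 in DBA, and 9.10 and 8.97 in C57 (normalized log2, smoked before control). Psmb9 was at 8.41 and 8.49 in ICR, 8.58 and 8.72 in DBA, and 8.17 and 8.11 in C57, in the order DBA, ICR, C57 with no overlap, and its difference for DBA against C57 was 0.51 (SE 0.22, adjusted p = 0.417). Psmb10 was at 9.07 and 8.40 in ICR, 9.05 and 9.18 in DBA, and 9.20 and 9.27 in C57. Its differences of -0.38 for ICR against DBA, -0.50 for ICR against C57 and -0.12 for DBA against C57 had SE 0.25 each.

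The balance between an immunoproteasome subunit and the constitutive one it replaces separated DBA from the other strains for 1 of the 3 pairs, given here with no test. The log2 ratio of Psmb9 over Psmb6 within an array was -0.02 and -0.45 in ICR, 1.79 and 2.04 in DBA, and -0.50 and -0.50 in C57, smoked before control. Psmb6 itself had deposited intensities, before scaling, of 158 and 441 in ICR, 151 and 113 in DBA, and 459 and 464 in C57. Psmb6, at its 1 probe set, was higher in ICR than in DBA (log2 1.95, SE 0.25, adjusted p = 0.00857) and lower in DBA than in C57 (log2 -1.91, SE 0.25, adjusted p = 0.00633). The ratio of Psmb8 over Psmb5 overlapped between ICR and both other strains, at 1.25 and 0.16 in ICR, 0.71 and 1.19 in DBA, and 0.45 and 0.28 in C57. Psmb10 over Psmb7 was 0.71 and -0.26 in ICR, 0.997 and 1.26 in DBA, and 0.85 and 1.15 in C57. For both of these pairs the ICR arrays stood furthest apart, and the ICR smoked array was the higher one.

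**Figure D3:**
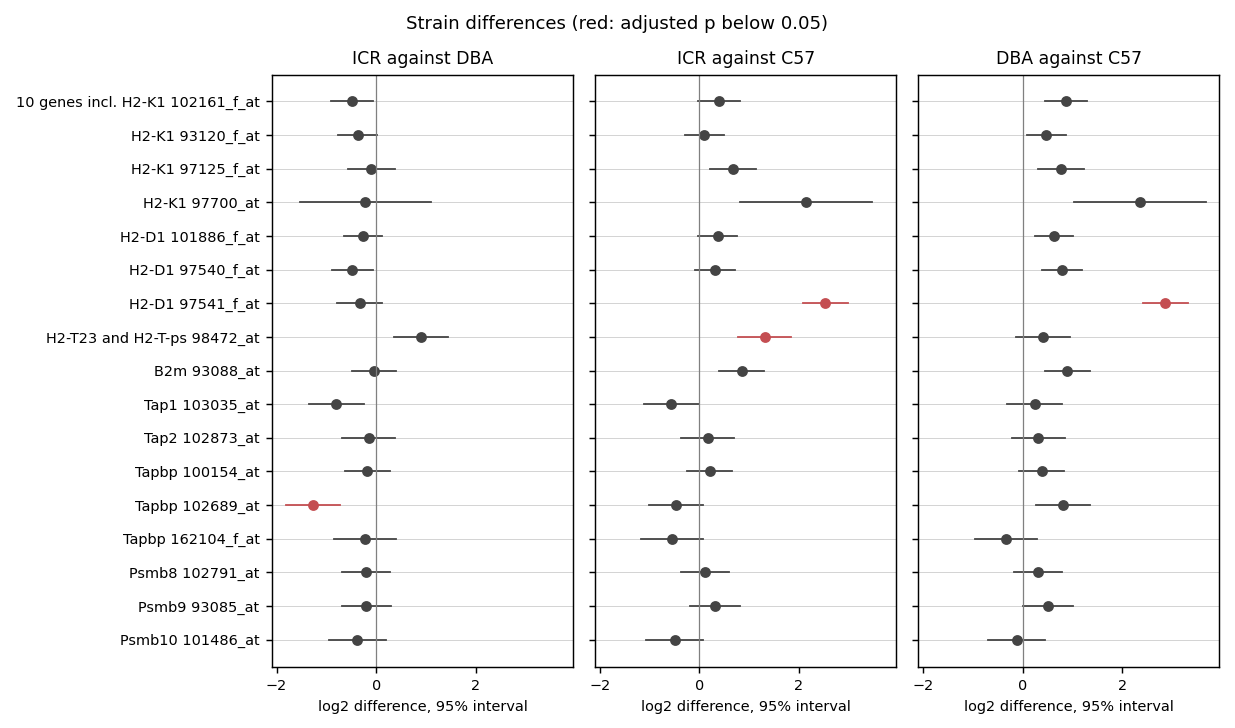
Log2 differences between strains with 95% intervals for the 17 tested member probe sets, from 2 arrays per strain with exposure in the fit. Points in red passed at an adjusted p below 0.05: H2-D1 97541_f_at at 2.52 and 2.86 against C57, the probe set of H2-T23 and H2-T-ps at 1.31, and Tapbp 102689_at at -1.27.

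Counted over the 17 tested probe sets, 1 was called for ICR against DBA (lower in ICR), 2 for ICR against C57 and 1 for DBA against C57 (higher in ICR or DBA). Among all 7453 probe sets tested, the shares called in those directions were 0.657%, 0.926% and 0.872%. A positive difference for DBA against C57 was found for 15 of the 17, against 46% of all probe sets, and an unadjusted p below 0.05 with DBA higher for 10 of the 17, against 6.05%. For ICR against C57, 13 of 17 were positive, against 48.6%, and 5 had an unadjusted p below 0.05 with ICR higher, against 8.91%, and 1 with ICR lower (Tap1), against 9.14%. For ICR against DBA, 1 of 17 was positive, against 51.2%, and 4 had an unadjusted p below 0.05 with ICR lower, against 7.98%, and 1 with ICR higher (98472_at), against 7.58%. Median differences of the 17 were -0.23 for ICR against DBA, 0.31 for ICR against C57 and 0.51 for DBA against C57, beside 0.01, -0.02 and -0.03 over all probe sets tested. The 3 comparisons share arrays, and the heavy chain probe sets share targets, so these counts are not independent. How often strains lie apart without overlap was not counted over all probe sets. The lack of overlap named for single probe sets above is therefore a description only. Without scaling between arrays the members' median for ICR against C57 turned to -0.50, above the median of -0.73 over all probe sets.

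No class I or antigen processing gene passed the test for smoke. Of the 17 probe sets 0 were called for smoked against control, where 3 of 7453 (0.0403%) were called over all genes, and 0 had an unadjusted p below 0.05, against 1.64%. Shared differences ran from -0.19 at Tap2 to 0.27 at Tapbp 100154_at, with a median of 0.03 beside 0.006 over all probe sets. For 16 of the 17 the 95% interval lay within 2-fold in either direction, as it did for 92.3% of all probe sets. The interval was -0.41 to 0.33 for B2m, -0.36 to 0.28 for H2-K1 93120_f_at, -0.30 to 0.36 for H2-D1 97540_f_at and -0.38 to 0.40 for Psmb8. The exception was H2-K1 97700_at, with -0.85 to 1.30.

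The same direction in all 3 strains was found for 2 of the 17 probe sets, 11.8%, against 17.6% of all probe sets. Tap2 was lower on the smoked array in each pair, by -0.25 in ICR, -0.19 in DBA and -0.15 in C57 (shared difference -0.19, SE 0.19, adjusted p = 1). Tapbp 100154_at was higher in each, by 0.36 in ICR, 0.09 in DBA and 0.37 in C57 (SE 0.16, adjusted p = 1), while the second Tapbp probe set, 102689_at, had -0.29, -0.38 and 0.13 in the same strains. B2m differed in sign between strains, at -0.39 in ICR, 0.01 in DBA and 0.26 in C57.

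**Figure D4:**
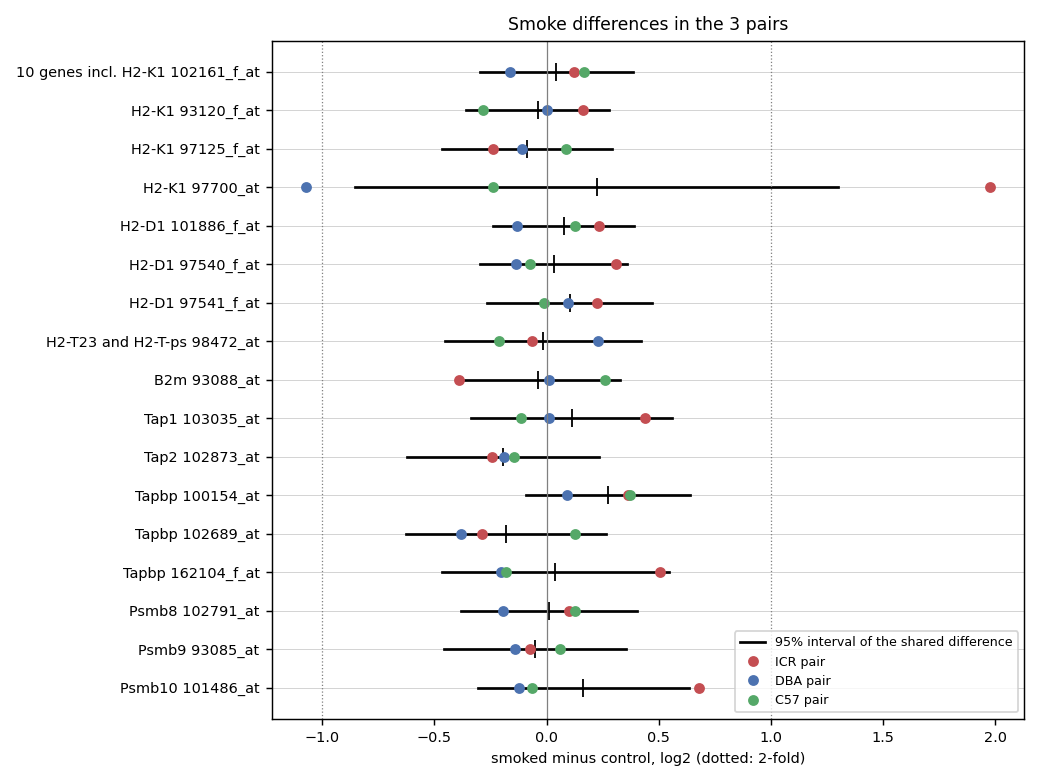
Smoked minus control on the normalized log2 scale for the 17 tested member probe sets, with a point for each strain's pair of arrays, and a black bar for the 95% interval of the difference shared by the 3 pairs. Pairs scatter on both sides of 0 for most probe sets, and H2-K1 97700_at has the widest spread, at 1.98 in ICR, -1.07 in DBA and -0.24 in C57.

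Within single strains, with 1 array on each side and no test, a difference of at least 2-fold was seen for 2 of the 20 probe sets in ICR, 1 in DBA and 0 in C57. Over all probe sets the shares were 8.6%, 4.19% and 3.28%. H2-K1 97700_at was 1.98 higher on the ICR smoked than on the ICR control array and 1.07 lower on the DBA smoked than on the DBA control array (normalized log2). The third value was 1.13 in ICR at 95773_at, where all 6 arrays read between 0.823 and 5.65, below the added constant. Psmb10 was 0.68 higher on the ICR smoked array, against -0.12 in DBA and -0.07 in C57.

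Whether 1 strain responded unlike the other strains was tested by giving that strain a smoke term of its own. Of the 17 probe sets 0 were called for the ICR, DBA or C57 response, where 0%, 0.711% and 0.134% of all probe sets were called. An unadjusted p below 0.05 was found for 2, 1 and 0 of the 17, against 14.3%, 3.94% and 3.01%. The 2 in ICR were H2-K1 97700_at, at log2 2.63 above the other strains' response (SE 0.45, adjusted p = 0.302), and Psmb10, at 0.77 (SE 0.27, adjusted p = 0.331). The 1 in DBA was again H2-K1 97700_at, at -1.94 (SE 0.57, adjusted p = 0.0865). The ICR smoked array, on which both ICR values rest, is the one with the lowest signal and the highest beta-actin ratio, and its part in them was not tested.

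Other genes of the pathway were read from lists of class I relatives, loading factors, proteasome regulators, class I regulators, interferon-induced genes and MHC class II genes, and 0 of the 61 tested were called for smoke. The largest smoke differences among them were -0.60 at H2-T24, a class I gene of the T region (SE 0.27), -0.52 at H2-Eb1, an MHC class II beta chain (SE 0.17), and -0.43 at Pdia3, a disulphide isomerase of the loading complex (SE 0.39), each at an adjusted p of 1. Pdia3 had deposited intensities of 87.4 and 667 in ICR, 690 and 536 in DBA, and 467 and 332 in C57, smoked before control. The smoked value was thus below control in ICR alone, and above it in DBA and C57. The part of the low signal of the ICR smoked array in this was not tested. List medians for smoke lay between -0.20 for MHC class II genes (10 tested, 1 positive) and 0.09 for peptide loading and trimming genes (6 tested). The shared value for the loading genes hid strain responses of opposite sign. Their median response against the other strains was -0.99 in ICR, 0.35 in DBA and 0.59 in C57, with 0 of the 6 called. The part of the ICR smoked array in these medians was not tested either. Of 16 interferon-induced genes tested 9 were positive, with a median of 0.02.

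Over all probe sets tested, 1.17% were called for ICR against DBA, 2.29% for ICR against C57 and 1.73% for DBA against C57, in either direction, and the list counts below are to be read beside these shares. Class I relatives differed between strains in both directions. Of 11 tested, H2-Q1 was higher in ICR than in DBA (log2 2.08, SE 0.30, adjusted p = 0.0146) and H2-Q4 lower (log2 -1.34, SE 0.25, adjusted p = 0.0477), and H2-T24 was higher in DBA than in C57 (log2 2.43, SE 0.33, adjusted p = 0.00666). H2-T24 had deposited intensities of 13.2 and 47.4 in ICR, 134 and 124 in DBA, and 5.98 and 19.1 in C57, smoked before control, so DBA stood above both others, and the C57 smoked value is below the added constant of 8.05, on which the size of the fold depends. H2-Q4 read 344 and 922 in ICR, 2403 and 2778 in DBA, and 1964 and 1453 in C57. The median of the 11 was 0.06 for ICR against DBA, 0.15 for ICR against C57 and 0.08 for DBA against C57.

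Of 12 class I regulators tested 0 were called in any strain comparison, where shares like those over all probe sets would give less than 1 call. Ifng, which encodes interferon gamma, read below the added constant on all 6 arrays. Of 16 interferon-induced genes 1 was called in each strain comparison. Iigp1, an immunity-related GTPase, was lower in ICR than in DBA (log2 -1.39, SE 0.25, adjusted p = 0.0374) and higher in DBA than in C57 (log2 1.80, SE 0.25, adjusted p = 0.00762). Its second probe set had -1.66 and 1.15. Usp18, a protease that removes ISG15, was lower in ICR than in C57 (log2 -1.38, SE 0.28, adjusted p = 0.0424). The list medians were -0.40 for ICR against DBA, 0.03 for ICR against C57 and 0.28 for DBA against C57, and 3 of the 16 were positive for ICR against DBA.

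MHC class II genes are given beside the class I members, with no test between the groups. Of 10 tested, 2 were called for ICR against DBA, 2 for ICR against C57 and 1 for DBA against C57. H2-Ea, the class II E alpha chain, read 17.7 and 71.6 in ICR, 1450 and 1594 in DBA, and 1.83 and 1.96 in C57, where it is below the added constant, so the size of its difference from C57 depends on that constant. H2-Ea was lower in ICR than in DBA (log2 -4.30, adjusted p = 0.000374) and higher than in C57 both in ICR (log2 2.65, adjusted p = 0.00284) and in DBA (log2 6.96, adjusted p = 1.72e-05, SE 0.29 each). The values of H2-D1 97541_f_at ran in the same order, but its difference of -0.34 between ICR and DBA did not pass. H2-Eb1, by contrast, was lower in ICR than in DBA (log2 -1.63, adjusted p = 0.00814) and than in C57 (log2 -1.48, adjusted p = 0.00978, SE 0.21 each). The class II medians were -0.70 for ICR against DBA (1 of 10 positive), -0.52 for ICR against C57 (1 of 10) and 0.12 for DBA against C57 (7 of 10), beside -0.23, 0.31 and 0.51 for the class I members. The units differ: class II medians take 1 probe set per gene, and class I medians all 17 tested member probe sets, several for the same gene. H2-Eb1 read 173 and 508 in ICR, 1462 and 2043 in DBA, and 1356 and 1675 in C57, smoked before control. No member of the peptide loading list passed in a strain comparison, and Psmb6 was the 1 called of 6 proteasome regulators and constitutive subunits.

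The probe sets most like the members' median profile were found by the mean absolute difference of standardised values over the 6 arrays, among 6731 non-member probe sets with 1 gene. They were Usp25 (0.0619), Nav1 (0.101), Nr1d1 (0.129), Fzd4 (0.14) and Tollip (0.159), beside a median of 1.14 over all candidates. They were picked as the smallest of these differences, so lying far below the median follows from the choice. Standardising also removes the size of the changes. The members' median profile was 0.05 and -0.09 in ICR, 0.23 and 0.31 in DBA, and -0.27 and -0.33 in C57, smoked before control, as log2 distance from each probe set's mean.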

How the data were processed

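Lung RNA was profiled on Affymetrix arrays. Per the labels' protocols, Trizol RNA was copied from an oligo(dT) primer and labelled with biotin. The authors deposited 1 linear intensity per probe set and array (0.0305 to 10579). How they summarised and scaled the probes is not stated in the labels.

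A constant of 8.05 (percentile 20 of the deposited values) was added before taking log2, and arrays were quantile normalized because their log2 medians spread over 1.45 (limit 0.1). After removal of 66 controls, probe sets whose mean exceeded percentile 40 were tested (7453). Symbols come from the platform annotation and promoters from RefSeq (GRCm38.p6); all 10 member genes matched by gene identifier.

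limma 3.58.1 in R 4.3.3 (lmFit, eBayes with trend) was fitted to all 6 arrays with strain as a block, which leaves 2 residual degrees of freedom, or 1 where 1 strain has its own smoke term. P-values, 2-sided, were adjusted by Benjamini-Hochberg across all 7453 and called at 0.05. No group within a strain had replicates. Other genes were represented by their brightest probe set with 1 symbol. Named genes were all members, up to 6 called genes of the pathway lists per comparison (3 largest where none was called), Ifng (chosen after its values were seen), and the 5 closest profiles. The members and lists were chosen with earlier results of these data known. The fits were tested on simulated data: large changes were mostly recovered and many of the smallest missed, above all for the response of 1 strain, and calls on unchanged probe sets exceeded the nominal share in every fit. The number of arrays limits the precision. Figures used matplotlib 3.10.9 (Python 3.11.15).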

Additional observations from a re-analysis of the deposited data

How the results depend on the processing

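Every array carries the replicate number 1, so these numbers pair nothing. The smoked and control arrays were paired by strain, the block of the smoke fit, and 0 members were called with or without it. For smoked against control, 0 member probe sets were called under all 12 alternatives, and 26 of 204 values changed sign, none of them called. Counts of members called moved elsewhere. For DBA against C57 the count of 1 became 4 with a filter at the 60th percentile and 2 without scaling, and 1 to 3 with an array left out. For ICR against C57 the count of 2 became 1 without the filter, 3 with a filter at the 60th percentile and 0 without scaling, and 1 to 4 with an array left out. For ICR against DBA the count of 1 became 0 without the filter, with scaling to a common median or with a variance prior without trend, 2 without scaling, and 0 to 1 with an array left out. The ICR response count of 0 became 2 without scaling. The 3 differences of at least 2-fold within a strain became 6 at 1.5-fold, 1 at 3-fold and 7 without scaling. H2-D1 97541_f_at was called in 14 of 14 alternatives for DBA against C57 and in 13 of 14 for ICR against C57, with the exception of no scaling (log2 1.74, adjusted p = 0.0618). H2-K1 97700_at, not called as reported, passed in 6 of 14 and 4 of 14, mostly in fits with an array left out. The cause of these shifts was not tested. Each fit with an array left out has 1 residual degree of freedom, also where that array lies outside the comparison. Its p-values therefore lean on the spread of other probe sets, and passes there carry little weight. Without scaling, medians over all probe sets were -0.89 for ICR against DBA, -0.73 for ICR against C57 and 0.14 for DBA against C57.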
